A study of Rattus norvegicus with 16 samples.

Results

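Autophagy and mitophagy genes were followed in rat liver: Ulk1, Becn1, Atg5, Atg7, Map1lc3a, Map1lc3b, Gabarapl1, Sqstm1, Pink1 and Bnip3l. They were taken by symbol, and all 10 were found among the 17055 gene symbols of the count files. Liver RNA of 48 male Sprague-Dawley rats, 10 weeks old, had been pooled by 3 rats into 16 libraries, 4 for each of 4 groups. Rats were put under with isoflurane and kept on isoflurane, or put under with ketamine-xylazine and kept on Propofol, and every rat breathed oxygen through a ventilator and had its abdomen opened. In the sepsis groups the cecum was ligated and punctured (CLP, a model of infection starting in the abdomen), and in the control groups it was lifted out and put back; liver was taken 8 h after the abdomen was opened. The groups are called isoflurane control (libraries 5 to 8), isoflurane sepsis (libraries 1 to 4), propofol control (libraries 13 to 16) and propofol sepsis (libraries 9 to 12). All rats were operated on under anesthesia, so no group shows the liver of an untouched rat, and a pool does not show the spread between single rats.

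In autophagy a double membrane closes around cytoplasm and delivers it to the lysosome, and the liver is known for using it to mobilise glycogen, fat and protein and to remove damaged mitochondria. The Ulk1 kinase starts the process, the lipid kinase complex with Becn1 marks the membrane, and Atg7 and Atg5 act in the conjugation that fixes Atg8 family proteins (Map1lc3a, Map1lc3b, Gabarapl1) to it. Sqstm1, or p62, carries ubiquitinated cargo to these proteins and is itself degraded with it, while Pink1 and Bnip3l mark mitochondria for removal (mitophagy). These processes are carried out by proteins, and the values here are mRNA levels.

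The comparisons ask how sepsis changed these mRNAs under each anesthetic, and how the anesthetics compared. Some of the 10 genes passed the test of sepsis against control. Under isoflurane Atg7 and Pink1 fell to about 0.67 of their control levels and Bnip3l rose 1.25-fold. Under propofol Sqstm1 fell to 0.53 of its control level and Bnip3l rose 1.34-fold. In all, 3 of the 10 passed the test under isoflurane (1 higher, 2 lower), where 50.0% of all genes tested did (25.7% higher, 24.4% lower), and 2 under propofol (1 higher, 1 lower), where 42.1% did (20.4% higher, 21.7% lower). The share of the 10 that passed was below that of all genes in both of these fits, but 10 genes are few and the counts moved with the setting. They were 5 under isoflurane with all 16 libraries in 1 fit, and 4 under propofol without control library 13. The median log2 fold change of the 10 was -0.04 under isoflurane, beside 0.01 over all genes. Under propofol it was 0.003, beside -0.002 over all genes, and it went below 0 (-0.05) with scaling by library totals. All 10 genes passed the filter on low counts in every comparison. The test is edgeR's quasi-likelihood test with Benjamini-Hochberg adjustment over all genes tested, a gene is said to have risen, fallen or passed where its adjusted p was below 0.05, and levels are CPM (a count as a share of the library, after TMM scaling).

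**Figure D1:**
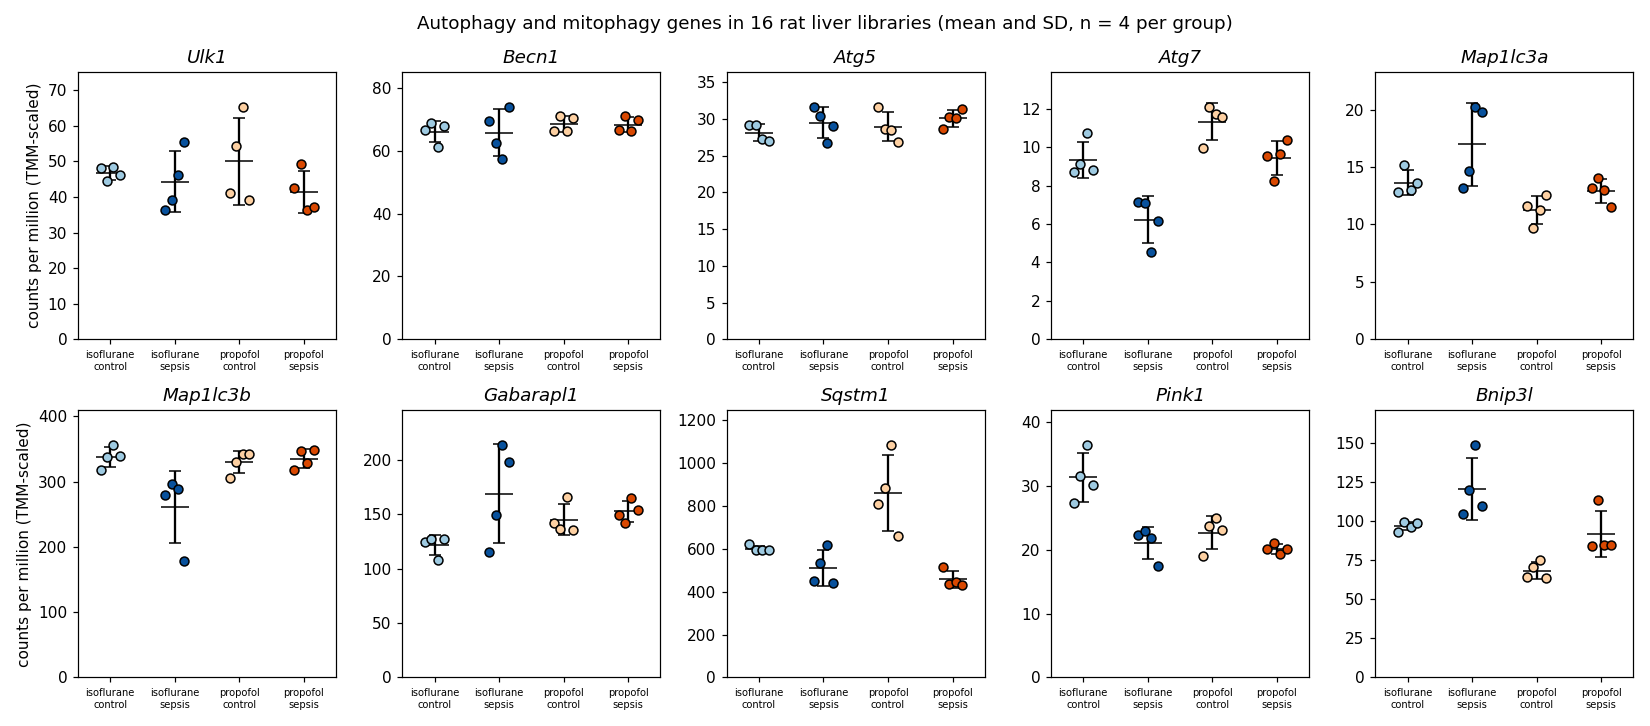
CPM of the 10 genes (y axis, from 0, 1 panel a gene) in the 16 libraries by group (x axis), with the group mean as a bar and the SD over 4 libraries as whiskers. Sqstm1 was highest in the propofol control libraries (658 to 1083 CPM), Atg7 lowest in the isoflurane sepsis libraries (4.56 to 7.14 CPM), and Becn1 and Atg5 lay at like levels in all groups.

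Each library held between 14199422 and 49937173 reads on genes, and the lowest count behind any value is 88 reads, for Atg7 in an isoflurane sepsis library. Hepatocyte markers were abundant in every library. The summed level of 9 of them was 142573 to 152696 CPM in the isoflurane control and 118960 to 130791 CPM in the isoflurane sepsis libraries, without overlap, and 105339 to 118060 CPM and 96898 to 108021 CPM under propofol. Under isoflurane all 9 had fold changes below 0, 7 did not overlap between the groups and 3 passed as lower. Of all genes tested there, 48.7% did not overlap and 24.4% passed as lower. Under propofol 6 of the 9 were below 0, 1 did not overlap and 1 passed as lower. There 42.2% of all genes did not overlap and 21.7% passed as lower. The summed level of 8 neutrophil and monocyte markers was 17.0 to 19.5 CPM in the isoflurane control libraries and 35.7 to 115 in the isoflurane sepsis libraries. Under propofol it was 18.3 to 25.3 CPM in the control and 36.4 to 53.0 in the sepsis libraries. For 8 macrophage markers the sum was 317 to 395 CPM and 387 to 507 CPM under isoflurane, and 376 to 413 CPM and 351 to 410 CPM under propofol, in control and sepsis libraries in turn. Lymphocyte markers (7 of 8 in the files) summed to between 1.16 and 4.35 CPM in every library, and no marker of these lists was at 0 in any group. Propofol sepsis library 10 stood apart, with 352 CPM over 6 brain markers, where the other libraries had 3.89 to 23.3 CPM. Without it, 2 of the 10 genes again passed under propofol. The part of other cell types in the results was not tested, and in whole liver fewer cells of a type and less RNA per cell cannot be told apart.

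Sequences before the gene starts are shown for Pink1, which fell under isoflurane, and Sqstm1, which fell under propofol, so that they can be read beside their values. Atg7, which also fell under isoflurane, had a promoter and is not shown. RefSeq promoters (GRCr8; 250 bases before and 50 after the start) were given for 7 of the 10 genes, while Map1lc3a, Becn1 and Bnip3l had none. The 250 bases before the start of Pink1 (chr5:155825951-155826200, minus strand) and of Sqstm1 (chr10:35037751-35038000, minus strand) read as follows, with CACGTG in capitals.
Pink1: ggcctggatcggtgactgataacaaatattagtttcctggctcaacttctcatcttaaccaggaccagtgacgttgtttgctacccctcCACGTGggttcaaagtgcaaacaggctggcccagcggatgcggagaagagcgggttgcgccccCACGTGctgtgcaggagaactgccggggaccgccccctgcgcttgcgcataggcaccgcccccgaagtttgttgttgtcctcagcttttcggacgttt
Sqstm1: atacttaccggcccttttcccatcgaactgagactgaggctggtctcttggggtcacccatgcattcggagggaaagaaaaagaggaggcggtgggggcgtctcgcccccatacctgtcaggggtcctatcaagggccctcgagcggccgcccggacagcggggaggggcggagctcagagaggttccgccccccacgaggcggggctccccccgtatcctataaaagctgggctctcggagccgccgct

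CACGTG is the E-box that factors such as Tfeb, a known activator of autophagy and lysosome genes, recognise. It reads the same on both strands. In Pink1 it stood at -161 and -98 from the start, in Atg5 at -19, and in the other 5 promoters it was not found. Of all 33469 promoters of the same length, 6.42% held it. The Atg5 stretch around it (chr20:49380804-49380833, plus strand) is shown as the other match among these genes. Whether the motif bears on the level of either gene was not tested.
Atg5: cggggcgctggcCACGTGggcgggtgacgt

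The letters TGACNNNGC of the antioxidant element, searched on both strands, were found in Map1lc3b at -8 and in none of the other 6, against 12.1% of all promoters. ACGTG or GCGTG, the core of the hypoxia element, occurs within every CACGTG and was found in Pink1, Atg5, Map1lc3b and Gabarapl1, against 41.6% of all promoters. None of the 3 motifs was found in the promoters of Sqstm1, Ulk1 and Atg7. A match is a description of letters and is not evidence of binding, and no match says only that these letters are not in this window.

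Ulk1, the kinase that starts autophagosome formation, did not pass in any comparison. Becn1, a subunit of the lipid kinase complex, was at like levels in all groups. Ulk1 lay between 44.4 and 48.5 CPM in the isoflurane control libraries and between 36.2 and 55.4 CPM after sepsis. Its propofol control libraries were spread more widely, at 41.3, 54.3, 65.4 and 39.2 CPM (libraries 13 to 16), a coefficient of variation of 24.4%. After sepsis under propofol it lay between 36.4 and 49.2 CPM. The groups overlapped under both anesthetics, with log2 fold changes of -0.07 (SE 0.13, adjusted p = 0.651) and -0.28 (SE 0.16, adjusted p = 0.190). The 95% interval under propofol, -0.65 to 0.08, holds falls of the size seen for Atg7 and Pink1 under isoflurane. Becn1 stayed between 57.3 and 74.1 CPM over all 16 libraries, with log2 fold changes of -0.005 (95% interval -0.20 to 0.19) under isoflurane and -0.01 (-0.14 to 0.12) under propofol.

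Atg7, the E1-like enzyme that activates Atg8 proteins and Atg12, fell with sepsis under isoflurane. Its isoflurane control libraries were at 8.70, 9.11, 10.7 and 8.83 CPM and its isoflurane sepsis libraries at 7.14, 7.09, 4.56 and 6.16 CPM. The summed hepatocyte markers were lower in the same libraries, and their part in this fall and in that of Pink1 was not tested. Every sepsis library lay below every control library for Atg7, which held for 48.7% of all genes tested in that comparison. Its log2 fold change was -0.58 (SE 0.15, adjusted p = 0.00990), and it lay between -0.66 and -0.46 with each library left out, the call being kept each time. Under propofol Atg7 was at 9.98, 12.1, 11.7 and 11.6 CPM in the control and 9.54, 8.24, 9.67 and 10.4 CPM in the sepsis libraries, overlapping only through control library 13. There the log2 fold change was -0.27 (SE 0.10) with an adjusted p of 0.0515, which misses the threshold, and 0.0308 without library 13. The difference between the 2 changes was -0.32 on the log2 scale (adjusted p = 0.290).

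Atg5, which is joined to Atg12 in the same conjugation system, stayed between 26.8 and 31.7 CPM over all libraries. Its log2 fold changes were 0.07 (95% interval -0.09 to 0.23) under isoflurane and 0.05 (-0.10 to 0.20) under propofol. These intervals hold no change of the size seen for Atg7 under isoflurane.

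None of the 3 Atg8 family members passed the test in either anesthetic, but their isoflurane sepsis libraries differed widely among themselves. Map1lc3b, the LC3B of autophagosome membranes, was at 318, 338, 356 and 339 CPM in the isoflurane control libraries and at 280, 296, 289 and 179 CPM in the isoflurane sepsis libraries, which did not overlap. A log2 fold change of -0.37 (SE 0.15) had an adjusted p of 0.0686. Without library 4, the lowest, it was smaller at -0.22 and passed (adjusted p = 0.0226). Under propofol Map1lc3b lay between 306 and 343 CPM in the control and between 318 and 349 CPM in the sepsis libraries (log2 fold change 0.02, 95% interval -0.12 to 0.15).

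Gabarapl1, a GABARAP-type Atg8 protein, was at 124, 127, 108 and 128 CPM in the isoflurane control libraries and at 115, 150, 214 and 198 CPM in isoflurane sepsis libraries 1 to 4. Library 1 lay within the control range and the other three above it. The log2 fold change of 0.48 (SE 0.18) missed the threshold (adjusted p = 0.0549), and without library 1 it was 0.63 and passed (adjusted p = 0.00402). Map1lc3a, the LC3A gene, followed the same order, at 13.2, 14.6, 20.3 and 19.8 CPM after sepsis against 12.8, 15.2, 12.96 and 13.6 CPM in the controls (0.32, SE 0.15, adjusted p = 0.112, and 0.43 with adjusted p = 0.0218 without library 1). The summed level of neutrophil and monocyte markers in the same 4 sepsis libraries was 35.7, 72.7, 115 and 99.6 CPM. It was lowest in library 1 and highest in library 3, as were Gabarapl1, Map1lc3a and also Bnip3l. The part of these markers in the levels was not tested. Under propofol Gabarapl1 lay between 135 and 166 CPM in the control and 142 and 166 CPM in the sepsis libraries, and Map1lc3a between 9.67 and 12.6 CPM and between 11.5 and 14.05 CPM. The log2 fold changes there were 0.07 (adjusted p = 0.512) and 0.19 (adjusted p = 0.155).

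**Figure D2:**
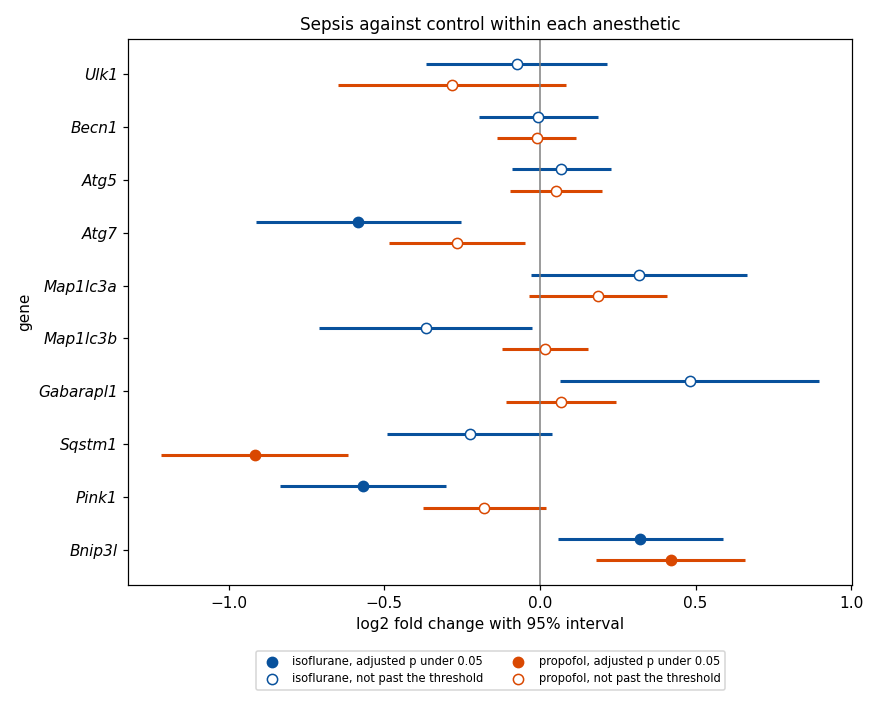
Log2 fold change of sepsis against control (x axis) for the 10 genes (y axis) under isoflurane (blue) and propofol (orange), with 95% intervals as lines and filled points for an adjusted p below 0.05. Filled points are Atg7 (-0.58), Pink1 (-0.57) and Bnip3l (0.32) under isoflurane, and Sqstm1 (-0.92) and Bnip3l (0.42) under propofol.

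Sqstm1, the cargo receptor p62, had the largest fold change of the 10 genes, and it fell under propofol. Its propofol control libraries were at 808, 884, 1083 and 658 CPM and its propofol sepsis libraries at 515, 435, 447 and 429 CPM. All 4 sepsis libraries lay below all 4 control libraries, as held for 42.2% of all genes tested under propofol. The log2 fold change was -0.92 (SE 0.13, 95% interval -1.22 to -0.62, adjusted p = 0.000617), a fall of 47.0%, and it was -0.89 without library 10. With each library left out it lay between -1.02 and -0.79 and passed each time.

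Under isoflurane Sqstm1 was at 620, 592, 592 and 596 CPM in the control libraries, a coefficient of variation of 2.29%, and at 450, 533, 619 and 442 CPM in the sepsis libraries. Library 3 lay within the control range and the other three below it. Its change of -0.23 (SE 0.12) did not pass (adjusted p = 0.138), and without library 3 it was -0.34 and passed (adjusted p = 0.0131). The change under isoflurane was less negative than that under propofol by 0.68 on the log2 scale (SE 0.19), which had an unadjusted p of 0.00214 and an adjusted p of 0.0603 in edgeR's quasi-likelihood test. DESeq2 put the adjusted p of this difference at 0.0169.

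In order of mean level, Sqstm1 was at 858 ± 177 CPM (SD, n = 4) in the propofol control, 600 ± 13.8 in the isoflurane control, 511 ± 82.9 in the isoflurane sepsis and 457 ± 39.8 in the propofol sepsis libraries. The step between the control groups was past the threshold (isoflurane minus propofol -0.52, SE 0.13, adjusted p = 0.00911). The septic groups overlapped and their difference did not pass (0.16, 95% interval -0.12 to 0.44, adjusted p = 0.342). A difference between the anesthetics was thus seen in the control rats and was not detected in the septic rats. Within the propofol control libraries Sqstm1, Ulk1 and Bnip3l were in the same order, highest in library 15 and lowest in library 16. Gabarapl1 was also highest in library 15 and lowest in library 16, so this order was not particular to Sqstm1 and Ulk1.

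Pink1, the kinase that accumulates on damaged mitochondria and recruits the ubiquitin ligase Parkin, fell with sepsis under isoflurane. It was at 27.4, 31.6, 36.5 and 30.1 CPM in the isoflurane control and at 22.3, 22.9, 21.8 and 17.5 CPM in the isoflurane sepsis libraries, with no overlap. On the log2 scale it changed by -0.57 (SE 0.12, 95% interval -0.83 to -0.30, adjusted p = 0.00418), a fall of 32.5%. It lay between -0.63 and -0.48 with each library left out and passed each time. Under propofol Pink1 was at 19.0, 23.8, 24.9 and 23.2 CPM in the control and 20.1, 21.2, 19.3 and 20.2 CPM in the sepsis libraries. There it changed by -0.18 (SE 0.09, adjusted p = 0.130), and by -0.25 (adjusted p = 0.0191) without control library 13, the lowest of its group. The difference between the changes was -0.40 (SE 0.15), with an unadjusted p of 0.0168 and an adjusted p of 0.130 in edgeR's test. The isoflurane control libraries stood above the other three groups, with a mean of 31.4 CPM against 22.7, 21.1 and 20.2 CPM in the propofol control, isoflurane sepsis and propofol sepsis libraries.

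Bnip3l, or Nix, an outer mitochondrial membrane receptor that binds Atg8 proteins directly, was higher after sepsis under both anesthetics. Its isoflurane control libraries were at 93.2, 99.3, 96.0 and 98.5 CPM and its isoflurane sepsis libraries at 104, 120, 149 and 109 CPM, without overlap. The log2 fold change of 0.32 (SE 0.12) had an adjusted p of 0.0461, close to the threshold. The direction was the same under every alternative, but the call was lost when 1 of libraries 2, 3, 5, 6, 7 or 8 was left out (adjusted p between 0.0569 and 0.110) and under 4 other settings (0.0507 to 0.0877). Under propofol Bnip3l was at 64.1, 70.5, 74.8 and 63.8 CPM in the control and 84.3, 114, 84.9 and 84.5 CPM in the sepsis libraries, again without overlap. The log2 fold change was 0.42 (SE 0.11, adjusted p = 0.0112). Library 10, which held the brain markers, was the highest, and without it the log2 fold change was 0.31 (adjusted p = 0.00541). The changes under isoflurane and propofol differed by -0.11 (95% interval -0.45 to 0.23, adjusted p = 0.695).

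None of the 10 genes passed the interaction test, which asks whether sepsis acted differently under isoflurane and propofol and where 2.72% of all genes tested did. With an unadjusted p below 0.05 there were 3, namely Sqstm1, Pink1 and Map1lc3b (-0.39, adjusted p = 0.173). In the same test 2452 of all 10621 genes had an unadjusted p below 0.05. DESeq2 called 1 of the 10, Sqstm1. A change that passed under 1 anesthetic and not the other, as for Atg7, Pink1 and Sqstm1, was therefore not shown to differ between them by this test.

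The anesthetics were also compared directly, in control rats and in septic rats. These comparisons use the same libraries as those above, and the induction drug and the library names differ with the anesthetic, so that anesthetic, induction and any difference in library handling cannot be told apart. In control rats 3 of the 10 genes passed, where 26.3% of all genes did. Relative to propofol, Pink1 (0.46, SE 0.10, adjusted p = 0.00448) and Bnip3l (0.50, SE 0.11, adjusted p = 0.00481) were higher under isoflurane and Sqstm1 was lower. The groups did not overlap for these 3 nor for Map1lc3a (0.27, adjusted p = 0.137) and Gabarapl1 (-0.25, adjusted p = 0.217), and 39.7% of all genes did not overlap. In septic rats 4 passed, where 38.6% of all genes did. Map1lc3a (0.39, SE 0.13, adjusted p = 0.0263) and Bnip3l (0.39, SE 0.11, adjusted p = 0.0143) were higher under isoflurane, and Atg7 (-0.61, SE 0.13, adjusted p = 0.00264) and Map1lc3b (-0.36, SE 0.12, adjusted p = 0.0243) were lower. The septic groups did not overlap for Atg7 and Map1lc3b, while 25.1% of all genes did not overlap there.

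**Figure D3:**
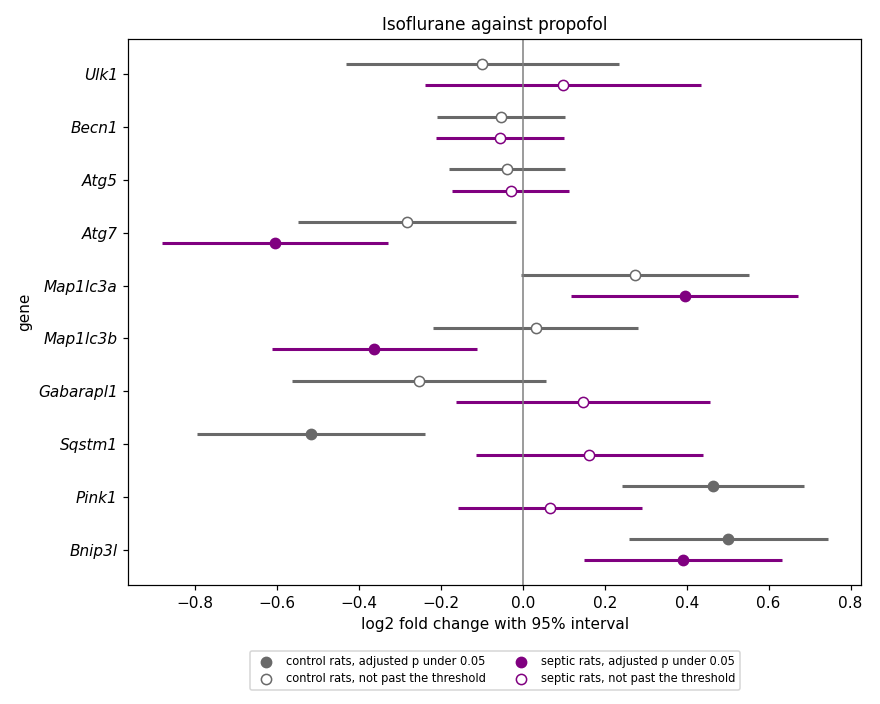
Log2 fold change of isoflurane against propofol (x axis) for the 10 genes (y axis) in control rats (grey) and septic rats (purple), with 95% intervals as lines and filled points for an adjusted p below 0.05. Bnip3l was higher under isoflurane in both (0.50 and 0.39), while Sqstm1 (-0.52) and Pink1 (0.46) passed in control rats and Atg7 (-0.61), Map1lc3b (-0.36) and Map1lc3a (0.39) in septic rats.

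The comparisons between anesthetics depend on the scaling. With library totals alone, the median of all genes shifted by -0.14 in control rats and by -0.15 in septic rats on the log2 scale, and the share of called genes that were higher under isoflurane went from 49.4% to 19.6% and from 50.9% to 24.9%. Sqstm1, Pink1 and Bnip3l in control rats kept their direction and call under that scaling (-0.66, 0.32 and 0.36), as did Atg7 and Map1lc3b in septic rats (-0.75 and -0.51). In septic rats Map1lc3a (0.24, adjusted p = 0.140) and Bnip3l (0.24, adjusted p = 0.0973) no longer passed. Becn1, which had not passed, then did so as lower under isoflurane in septic rats (-0.21, adjusted p = 0.0302). In the comparison of sepsis with control the same scaling moved the share of calls that were higher from 51.3% to 43.0% under isoflurane and from 48.4% to 38.3% under propofol.

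The 10 genes are part of a longer list of 83 autophagy genes in 9 roles, of which 77 were in the files and 75 were tested (Calcoco1 and Bcl2 were not). Under isoflurane 38 of the 75 passed, 24 higher and 14 lower, which is 50.7% beside 50.0% of all genes. Under propofol 36 passed, 22 higher and 14 lower, which is 48.0% beside 42.1% of all genes. The median log2 fold changes were 0.07 and 0.02, and the second was below 0 (-0.04) with library totals. The list taken whole was thus near the background in both, and its roles are described by the genes that passed. Each role holds few genes, and the share called lay between 0% (Atg8 family) and 75.0% (membrane supply) under isoflurane and between 0% (Atg8 family) and 77.8% (cargo receptors) under propofol. The libraries of the 2 comparisons are different rats. Of the 75 genes, 24 passed in both, all 24 in the same direction, 14 only under isoflurane and 12 only under propofol. This is not itself a test of a difference. The matching shares over all genes were not counted, so the overlap is not read as particular to these genes.

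Genes that supply membrane to the growing autophagosome were mostly higher. Of 8 tested, 5 rose and 1 fell under isoflurane and 5 rose under propofol, with medians of 0.36 and 0.41. Of all genes tested, 25.7% rose and 24.4% fell under isoflurane, and 20.4% rose and 21.7% fell under propofol. Atg2a, a lipid transfer protein, rose by 0.85 (SE 0.12, adjusted p = 0.000641) and 0.70 (SE 0.08, adjusted p = 0.000199) under isoflurane and propofol. Vmp1, a lipid scramblase of the endoplasmic reticulum, rose by 0.37 and 0.42, and Wdr45b, which binds the lipid made by the Becn1 complex, by 0.55 and 0.40. Tmem41b, a partner of Vmp1, rose by 0.39 and 0.53. Wipi2 passed under isoflurane (0.34).

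In the initiation complex Ulk2, the paralog of Ulk1, rose by 0.49 (adjusted p = 0.00144) under isoflurane and 0.52 (adjusted p = 0.000557) under propofol, where Ulk1 itself did not pass. The scaffold subunit Atg13 passed under propofol (0.23). Rb1cc1, a further scaffold subunit, had a fold change of 0.24 in both, which passed under propofol and missed the threshold under isoflurane (adjusted p = 0.0518). The counts were therefore 1 of 4 higher under isoflurane, or 2 with RLE factors, and 3 of 4 under propofol. In the lipid kinase complex, with 7 genes tested, Atg14, the subunit that directs it to autophagosomes, rose by 0.78 and 0.77. Uvrag, which takes its place in the endosomal form of the complex, fell by 0.25 and 0.36 on the log2 scale. The kinase regulator Pik3r4 passed under isoflurane (-0.51), and the kinase itself, Pik3c3 (-0.83, adjusted p = 9.42e-05), and Nrbf2 (-0.63) under propofol. In all 1 rose and 2 fell under isoflurane, and 1 rose and 3 fell under propofol. Beside the counts of both complexes, 25.7% of all genes tested rose and 24.4% fell under isoflurane. Under propofol 20.4% of all genes rose and 21.7% fell.

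Of 9 conjugation genes 3 fell under isoflurane (33.3%) and 2 under propofol (22.2%), and none rose, where 24.4% and 21.7% of all genes fell. Atg3, the E2-like enzyme that works next to Atg7, fell by 0.39 (adjusted p = 0.00118) and 0.37 (adjusted p = 0.00240) on the log2 scale. Atg10, the E2-like enzyme for Atg12, was at a mean of 3.02 CPM in the isoflurane control and 1.26 CPM in the isoflurane sepsis libraries (-1.25, adjusted p = 0.00124). Atg4c, a protease that trims Atg8 proteins, passed under propofol (-0.35). The median over the 9 was 0.06 under isoflurane and -0.04 under propofol, and the former was -0.01 with library totals. None of the 5 Atg8 family genes passed under either anesthetic. With library totals 2 passed as lower under isoflurane.

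Among the cargo receptors 4 of 9 rose and 1 fell under isoflurane, and 4 rose and 3 fell under propofol, Sqstm1 among the latter. The shares called, 55.6% and 77.8%, lay beside 50.0% and 42.1% of all genes. Fam134b, a receptor for the endoplasmic reticulum, rose by 0.61 (adjusted p = 0.00372) and 1.12 (adjusted p = 0.000110). Wdfy3, a scaffold for protein aggregates that acts with Sqstm1, rose by 0.92 and 0.80, and Tollip, a ubiquitin-binding adaptor, by 0.30 in both. Ncoa4, the receptor for ferritin, passed as lower in both (-0.27 and -0.17). Stbd1, a receptor for glycogen, was at mean levels of 60.6 and 123 CPM in isoflurane control and sepsis libraries (1.04, adjusted p = 0.126) and fell from 91.3 to 30.0 CPM under propofol (-1.61, SE 0.18, adjusted p = 0.000152).

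Of 11 mitophagy genes, 4 rose and 3 fell under isoflurane, and 3 rose and 3 fell under propofol, Pink1 and Bnip3l included. The shares called, 63.6% and 54.5%, lay beside 50.0% and 42.1% of all genes. Bnip3, the paralog of Bnip3l, rose from 76.5 to 236 CPM under isoflurane (1.64, SE 0.38, adjusted p = 0.00678) and from 44.7 to 89.4 CPM under propofol (1.00, SE 0.20, adjusted p = 0.00341). Fundc1, another receptor of the outer membrane, fell by 0.63 and 0.49 on the log2 scale. Usp30, a deubiquitinase that opposes Pink1 and Parkin, fell by 0.55 and 0.53. Pgam5, a mitochondrial phosphatase that acts on Fundc1, passed under isoflurane (0.30) and Fkbp8, a mitophagy receptor, under propofol (-0.24). The receptors thus moved in both directions.

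Of 6 genes for fusion with the lysosome, 1 rose and 3 fell under isoflurane and 1 rose and 2 fell under propofol. The shares called, 66.7% and 50.0%, lay beside 50.0% and 42.1% of all genes. Stx17, the SNARE of the autophagosome, fell from 14.01 to 7.54 CPM under isoflurane (-0.89, SE 0.10, adjusted p = 0.000230) and from 15.2 to 11.5 CPM under propofol (-0.41, SE 0.10, adjusted p = 0.00846). Vamp8, its partner on the lysosome, fell by 0.42 and 0.32. The tethers Tecpr1 (-0.32) and Plekhm1 (0.58) passed under isoflurane and Snap29, a further SNARE, under propofol (0.14).

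Upstream regulators were the largest role, with 8 of 16 higher and 1 lower under isoflurane and 5 higher and 1 lower under propofol. The shares called, 56.2% and 37.5%, lay beside 50.0% and 42.1% of all genes. Bcl2l1 and Mcl1, Bcl-2 family proteins that bind Becn1 and block cell death, rose by 1.65 and 0.90 under isoflurane and by 0.44 and 0.55 under propofol. Sesn1, an inhibitor of mTORC1, fell by 0.38 and 0.46. The transcription factor Foxo3 rose by 1.53 (adjusted p = 0.0107) under isoflurane and 0.81 (adjusted p = 0.00334) under propofol. Tfe3, another transcription factor, passed under isoflurane (0.29), and Prkaa2, a catalytic subunit of AMPK, and Akt1s1, a subunit of mTORC1, passed under propofol (0.57 and 0.27). Ddit4, an inhibitor of mTORC1 named here after its values had been seen, rose from 9.86 to 49.6 CPM under isoflurane (2.35, SE 0.68, adjusted p = 0.0182). It was at 17.5 and 19.2 CPM under propofol (0.13, adjusted p = 0.516). The difference between its changes did not pass the interaction test (2.19, SE 0.72, adjusted p = 0.0962).

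**Figure D4:**
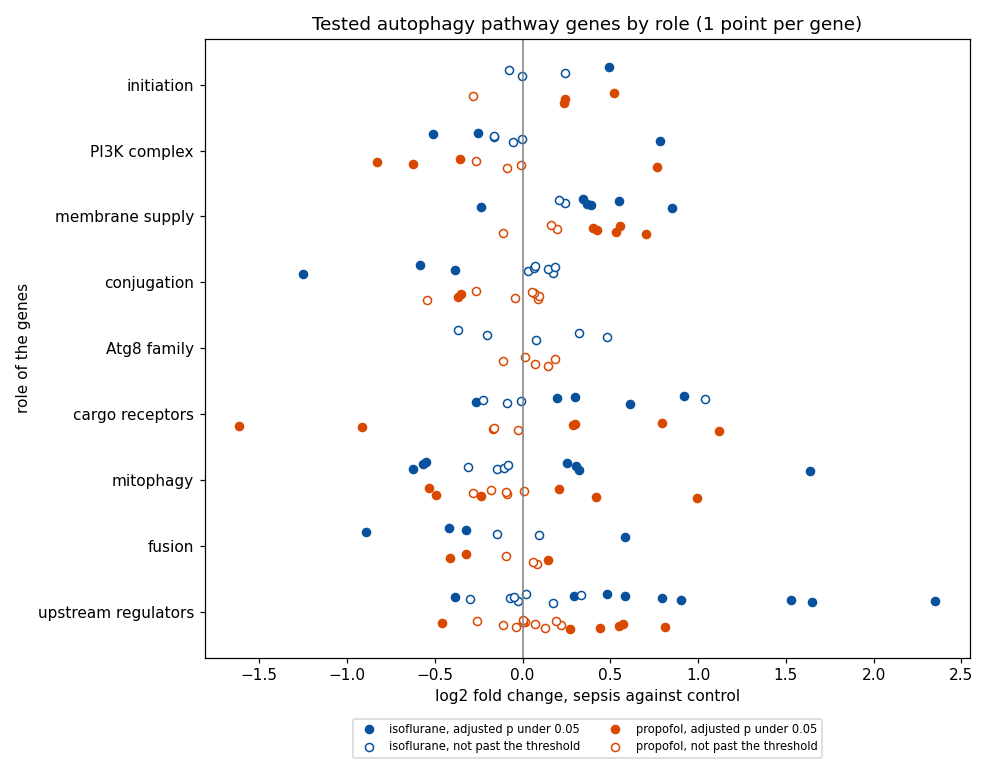
Log2 fold change of sepsis against control (x axis) for the 75 tested autophagy genes by role (y axis), under isoflurane (blue) and propofol (orange), with 1 point a gene and filled points for an adjusted p below 0.05. Membrane supply genes lay mostly above 0, the conjugation genes that passed lay below 0, and none of the 5 Atg8 family genes passed.

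The response to sepsis differed between the anesthetics for 2 of the 75 genes, 2.67% beside 2.72% of all genes. These were Stbd1 (isoflurane minus propofol 2.63, SE 0.59, adjusted p = 0.0354) and Prkaa2 (-0.65, SE 0.16, adjusted p = 0.0424). Both calls were fragile, as the number of genes called lay between 0 and 11 with each library left out.

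Between the control groups 20 of the 75 genes passed, 12 higher and 8 lower under isoflurane. Those with the smallest adjusted p beside Pink1 and Bnip3l were Wipi1 (0.96), Fam134b (0.86), Tecpr1 (0.39), Prkaa2 (0.58), Gabarap (0.33), Pgam5 (-0.45), Atg3 (-0.28) and Tmem41b (0.48). Between the septic groups 31 passed, 21 higher and 10 lower, led beside Atg7 by Bcl2l1 (1.45), Stx17 (-0.60), Mcl1 (0.78), Plekhm1 (0.71), Wipi1 (0.60), Atg3 (-0.31), Stbd1 (2.04), Bnip3 (1.40) and Atg2a (0.43). The shares, 26.7% and 41.3%, lay beside 26.3% and 38.6% of all genes.

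A search for genes with like levels covered 8818 genes above a floor on mean level. It left out the longer autophagy list, so other autophagy genes were not compared. The genes most like the members that passed under either anesthetic were found by Pearson's r of log2 CPM over all 16 libraries. They were Ercc3 for Atg7 (r = 0.978), Btbd9 for Bnip3l (0.964), Acot12 for Sqstm1 (0.940) and Mdh1 for Pink1 (0.929). These values are descriptions over libraries that fall into 4 groups, so a pair that differs between the groups in the same way has a high r whatever happens within them.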

How the data were processed

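Liver RNA was sequenced from 16 libraries of 3 pooled rats, made from polyadenylated RNA with a kit that keeps the strand and read from 1 end. The authors deposited counts, the whole number of reads on each of 17055 gene symbols per library, without normalization. The submitters' processing notes name STAR and the build rn5; the counting program, its annotation and its treatment of reads that match more than 1 place are, in the sources used here, not given. Map1lc3a, Map1lc3b and the GABARAP genes are related to each other, so levels of each could hold reads of another. Reads outside genes (21.6% to 25.4% of reads) and ambiguous reads (1.07% to 1.35%), were left out. Groups came from the sample labels. The labels do not say that the libraries of a group are separate pools of different rats, but the paper lists 12 rats in each group as 4 pools of 3. The p-values measure the spread between libraries only. Counts of libraries within a group differed by 3.47 to 101.7 in chi-square per degree of freedom, so none was counted as deposited more than once.

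Quasi-likelihood tests (edgeR 4.0.16, R 4.3.3) compared sepsis with control in separate fits of 8 libraries per anesthetic (TMM scaling, filterByExpr with minimum counts of 10 per library and 15 in total, Benjamini-Hochberg adjustment over all genes, adjusted p below 0.05, two-sided). The interaction and the comparisons between anesthetics used 1 fit of 16 libraries. Alternatives were RLE factors, library totals, DESeq2 1.42.0, limma-voom (limma 3.58.1), no filter, thinning to the depth of the shallowest library, a joint fit of all 16 libraries and each library left out. The scripts were tested on simulated counts with 200 genes changed by 1 on the log2 scale. Of these, 80% were called under isoflurane, 75.5% under propofol and 63% for the interaction. In the same order 6.98%, 5.03% and 5.26% of the calls were false. The genes, the list of 83 and the marker lists were chosen with earlier results of these data known, and the brain markers after library 10 had been seen. Beyond the 10 genes, the rule named in each role and anesthetic up to 4 called genes by adjusted p, and up to 10 called genes for the other comparisons. Promoters came from RefSeq (GRCr8); no coordinate was moved between builds.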

Additional observations from a re-analysis of the deposited data

Results flagged for a closer look

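In 40 groups of 4 libraries (10 genes in 4 groups), 4 had a library far from the other three, where chance gives about 1 in 20. Map1lc3b was at 179 CPM in isoflurane sepsis library 4, below 280 to 296 CPM in the rest of that group. Bnip3l was at 114 CPM in propofol sepsis library 10, above 84.3 to 84.9 CPM, and that library also held 352 CPM of brain markers. Gabarapl1 was at 108 CPM in isoflurane control library 7, below 124 to 128 CPM, and Sqstm1 at 620 CPM in isoflurane control library 5, above 592 to 596 CPM.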

How the results depend on the processing

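No fold change of the 10 genes that had passed changed its direction under any alternative. The number of the 10 called under isoflurane was 3 and became 5 with all 16 libraries in 1 fit, where Map1lc3b (-0.37) and Gabarapl1 (0.47) also passed, and lay between 2 and 5 with each library left out (5 without library 1). Under propofol it was 2 and lay between 2 and 4 (4 without library 13, where Atg7 and Pink1 also passed). For the interaction it was 0, 1 with DESeq2, and 0 to 2 with each library left out (2 without library 1, and 1 without library 4 or 16). Among the 75 genes the interaction gave 2 calls, 6 with DESeq2, 1 with limma-voom, 1 with no filter, and 0 to 11 with each library left out (11 without library 1). Between the control groups 3 of the 10 passed, 6 with library totals (Atg7, Becn1 and Gabarapl1 added) and 3 to 4 with each library left out. Between the septic groups 4 passed, and 2 to 5 with each library left out (2 without library 3 or 12). The causes were not tested. Calls for the 75 genes within each anesthetic lay between 31 and 49 under isoflurane and 31 and 37 under propofol. No paired analysis was possible because the libraries of different groups share no replicate number. With 4 libraries a group, changes as small as those of Becn1 and Atg5 were not detectable.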
